A study of Homo sapiens with 6 samples.

Results

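Antisense RNAs are transcripts read from the DNA strand opposite to that of a neighbouring gene. In LX-2, an established line of human hepatic stellate cells, 245 of the 5583 genes annotated as antisense had a summed count of at least 300 over 6 RNA-seq libraries, out of 58735 annotated genes in all, and these 245 were chosen by that count alone. For the 3 TGF-β1 libraries, cells had been transfected by Lipofectamine 2000 with siRNA (a short RNA that lowers a chosen mRNA) to NSUN2, which encodes an RNA cytosine methyltransferase, and 48 h later received 5 ng/ml TGF-β1 for 24 h. For the 3 untreated libraries, cells had the NSUN2 siRNA and no TGF-β1. Both groups therefore carried the siRNA, are labelled WT in genotype and come from 1 cell line. Libraries without the siRNA were not analysed here. The labels give NSUN2 as the target throughout and were followed here, whereas the design text of the series also mentions NAT10. The replicates are called biological without a named source, so p-values measure the spread between these libraries, which may be technical.

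The summed count that chose the RNAs adds both groups together, so it does not by itself favour a direction, but 41 of the 245 had fewer than 150 counts in 1 of the groups and could depend on the other group for their inclusion. Just inside the limit were AC008771.1 and SBF2-AS1, with 300 counts each, and just outside were AC010642.2 with 298 and ZNF529-AS1 with 295. Each of the 245 was matched to a partner, the protein-coding gene on the other strand whose span overlapped it most. A partner was found for 220 RNAs, which shared 218 partners, since CLDN14 and DLGAP1 each partnered 2 of them. Of the 25 RNAs without a partner, 15 started within 1000 bp of the start of a coding gene on the other strand.

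An antisense RNA can arise from the same stretch of open chromatin as its neighbour, when the pair starts head to head, or from a start site of its own inside or beyond the neighbour. Some act on the neighbouring gene, some act elsewhere in the cell, and many are short-lived products of transcription with no known role. TGF-β1 is the main cytokine that turns stellate cells into matrix-producing myofibroblasts, and it acts through SMAD transcription factors.

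Library totals ran from 25828504 to 30034762 counts. The stellate markers summed to 599 to 661 FPKM in TGF-β1 libraries and 347 to 355 FPKM in untreated libraries, with 6 of 13 markers at or above 1 FPKM (the deposited unit, fragments scaled to gene length and library size). COL1A1 gave most of that difference, with means of 396 FPKM in TGF-β1 and 140 FPKM in untreated libraries. Of the other markers above 1 FPKM, PDGFRB and VIM were also higher on average with TGF-β1, and HAND2, NGFR and LHX2 were lower. DCN was listed at 0 in every library, and COL1A2, DES and LUM were below 1 FPKM in both groups, so the line lacked several defining transcripts of the cell type it models. Of the markers of other liver cells, 1 of 8 for hepatocytes, 2 of 5 for cholangiocytes, 0 of 5 for endothelium and 1 of 6 for macrophages and leukocytes reached 1 FPKM. NSUN2, the labelled siRNA target, averaged 100.5 ± 3.07 normalised CPM (counts scaled to library size) in TGF-β1 libraries and 82.9 ± 1.47 CPM in untreated libraries (SD, n = 3 each), a log2 fold change of 0.28 (adjusted p = 1.57e-06 by edgeR's quasi-likelihood test). With both groups carrying the siRNA, these libraries cannot show the knockdown.

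TGF-β1 changed 74 of the 245 antisense RNAs: 34 rose and 40 fell (edgeR's quasi-likelihood test, Benjamini-Hochberg adjustment over 17215 genes, adjusted p under 0.05). Each of the 245 had passed the filter on low counts. The called RNAs were 30.2% of them, against 38.9% called among all genes tested, 20.2% higher and 18.7% lower. Scaling by library totals alone, which moved the median of all genes by −0.12 on the log2 scale, gave 20 higher and 61 lower. In bulk libraries, a lower level per cell and fewer cells with the RNA cannot be told apart. The 34 that rose changed by 0.26 to 4.62 on the log2 scale, and the 40 that fell by 0.17 to 2.37. Of the 74, 13 rose and 9 fell at least 2-fold. Among all 245 the median log2 fold change was −0.06, against −0.01 over all tested genes. The 41 RNAs with fewer than 150 counts in 1 group gave 8 of the rises and 12 of the falls, and the 204 others gave 26 rises and 28 falls.

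The RNAs were scarce, and their changes were measured with less precision than those of most genes. Their counts took 0.170% to 0.176% of each TGF-β1 library and 0.185% to 0.188% of each untreated library. The median RNA had 608 counts over the 6 libraries and a mean of 3.62 CPM, and 32 of the 245 reached 10 CPM. The median standard error of the log2 fold change was 0.20, against 0.10 over all tested genes and 0.07 for the partners. Among called genes the median absolute log2 fold change was 0.77 for the antisense RNAs and 0.37 for all genes. With larger standard errors only larger changes pass the test, so these 2 medians do not compare the size of the changes. Called or not, the median was 0.26 for the 245 and 0.22 for all tested genes. The CPM did not overlap between the groups for 44 RNAs that were higher and 53 that were lower in TGF-β1 libraries (39.6% in all), against 47.4% of all genes tested. Of the 74 called, 6 did overlap, namely AC020916.1, SLFNL1-AS1, KCNQ1OT1, RASSF8-AS1, AL162274.1 and NRSN2-AS1.

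**Figure D1:**
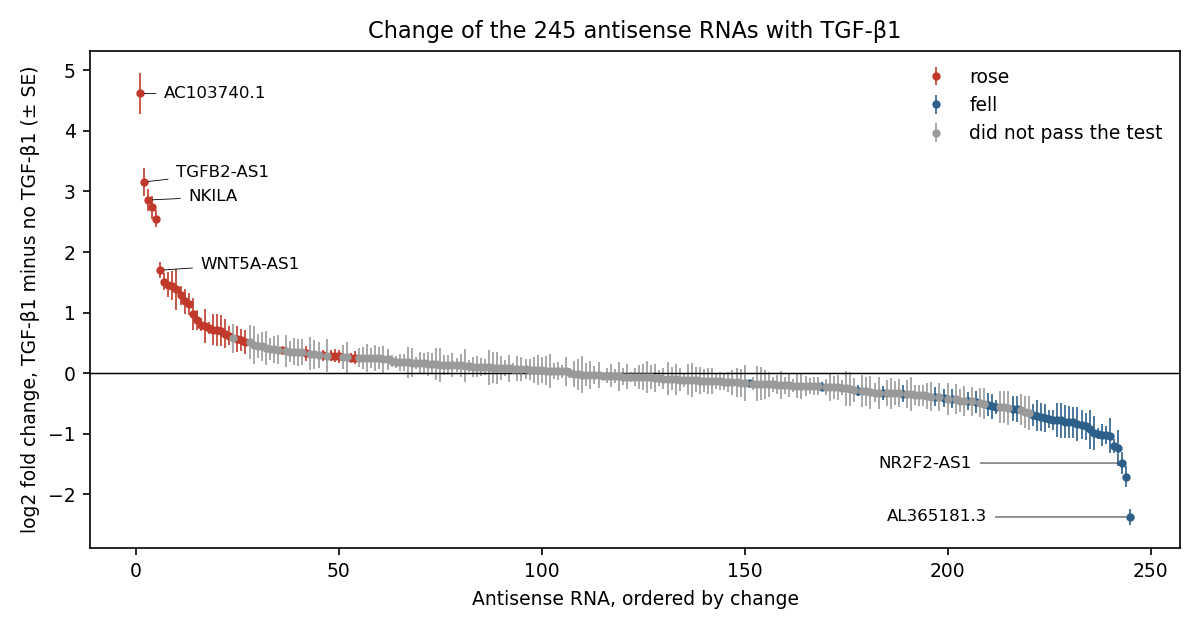
The log2 fold change (TGF-β1 minus no TGF-β1, vertical axis) of each of the 245 antisense RNAs, ordered from the largest rise to the largest fall along the horizontal axis. Points are fitted changes and bars are standard errors. The 5 RNAs at the left lie above 2.5, and AL365181.3 at the right lies at −2.37.

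TGFB2-AS1, NKILA, TPM1-AS, AL139393.2 and AC103740.1 rose the most, each by more than 5-fold. Without TGF-β1 these 5 averaged 0.179 to 2.89 CPM, so most of the counts that placed them among the 245 came from the TGF-β1 libraries. TGFB2-AS1 starts beside TGFB2, which encodes the ligand TGF-β2, and NKILA, an RNA known for restraining NF-κB signalling in cancer cells, starts within PMEPA1, whose membrane protein restrains SMAD signalling. The sources used here do not say whether the authors' read counting used strand, so reads over exons that a gene shares with a gene on the other strand cannot be told apart.

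TGFB2-AS1 (ENSG00000232480, chr1:218344196-218345678, minus strand, hg38) had 6.14, 6.04 and 5.52 CPM in TGF-β1 libraries, against 0.640, 0.624 and 0.714 CPM in untreated libraries. Every TGF-β1 library lay far above every untreated one. The log2 fold change was 3.16 ± 0.24 (SE), or 8.92-fold (adjusted p = 9.17e-15). TGFB2-AS1 overlaps no exon on the other strand, and its annotated start lies 557 bp from that of TGFB2. TGFB2 had 66.9, 56.2 and 56.0 CPM in TGF-β1 libraries, against 8.60, 8.50 and 10.2 CPM in untreated libraries, a log2 fold change of 2.72 ± 0.08 (adjusted p = 3.40e-27). The RNA and the ligand gene thus rose together from neighbouring starts on opposite strands. In RefSeq the starts are 342 bp apart, a distance taken without direction, so an overlap of the genes there was not examined. If they overlap, TGFB2 reads could enter the TGFB2-AS1 counts where strand was not used.

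NKILA (ENSG00000278709, chr20:57710183-57712780, plus strand) had 8.53, 11.2 and 11.6 CPM in TGF-β1 libraries, against 1.34, 1.77 and 1.18 CPM in untreated libraries. The groups were well apart, with a log2 fold change of 2.86 ± 0.19 (adjusted p = 7.12e-17). PMEPA1 had 525, 498 and 513 CPM in TGF-β1 libraries, against 9.82, 10.7 and 9.0 CPM in untreated libraries, a log2 fold change of 5.70 ± 0.05 (adjusted p = 1.80e-48). The ratio of NKILA to PMEPA1 counts fell by 2.85 ± 0.20 on the log2 scale (adjusted p = 2.97e-08 by limma, the ratio test is described further on), so the RNA rose by less than its partner. Exons of PMEPA1 cover 13.2% of the NKILA exons.

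TBILA (ENSG00000261488, chr3:112133423-112135359, plus strand) is a further RNA at a shared start, picked after its values were seen. It starts beside GCSAM, a signalling adaptor known from germinal centre B cells, and overlaps no coding gene. TBILA had 6.10, 6.25 and 6.84 CPM in TGF-β1 libraries, against 2.30, 3.15 and 3.21 CPM in untreated libraries, with no overlap between groups. Its log2 fold change was 1.15 ± 0.18 (adjusted p = 1.20e-06). GCSAM averaged 6.98 ± 0.333 CPM in TGF-β1 libraries and 1.79 ± 0.273 CPM in untreated libraries (SD, n = 3 each), a log2 fold change of 1.96 ± 0.19 (adjusted p = 1.44e-11).

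Promoter windows are shown for 5 RNAs that moved with a coding neighbour, 4 that start head to head with it (TGFB2-AS1, NKILA, TBILA, HAND2-AS1) and 1 that starts inside it (TPM1-AS). They come from RefSeq on GRCh38.p14 and hold the 250 bases before and the 50 bases from the RNA's start, written 5′ to 3′ on the RNA's own strand. Capitals mark CAGAC, which holds the CAGA core that SMAD proteins bind, or GTCTG, the same letters on the other strand. TGFB2-AS1 is chr1:218345629-218345928 (minus strand), NKILA chr20:57709933-57710232 (plus), TBILA chr3:112133173-112133472 (plus), HAND2-AS1 chr4:173530208-173530507 (plus) and TPM1-AS chr15:63049338-63049637 (minus).
TGFB2-AS1: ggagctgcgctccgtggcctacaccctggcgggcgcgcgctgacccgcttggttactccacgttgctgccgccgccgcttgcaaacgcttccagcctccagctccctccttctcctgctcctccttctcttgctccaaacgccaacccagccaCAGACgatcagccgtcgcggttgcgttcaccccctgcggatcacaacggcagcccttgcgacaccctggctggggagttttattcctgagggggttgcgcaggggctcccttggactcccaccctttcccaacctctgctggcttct
NKILA: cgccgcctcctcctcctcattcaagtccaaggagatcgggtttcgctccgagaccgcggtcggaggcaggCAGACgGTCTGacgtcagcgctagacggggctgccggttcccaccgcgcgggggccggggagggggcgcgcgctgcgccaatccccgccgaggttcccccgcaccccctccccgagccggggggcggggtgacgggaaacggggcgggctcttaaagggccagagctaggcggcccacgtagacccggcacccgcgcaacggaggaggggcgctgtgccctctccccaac
TBILA: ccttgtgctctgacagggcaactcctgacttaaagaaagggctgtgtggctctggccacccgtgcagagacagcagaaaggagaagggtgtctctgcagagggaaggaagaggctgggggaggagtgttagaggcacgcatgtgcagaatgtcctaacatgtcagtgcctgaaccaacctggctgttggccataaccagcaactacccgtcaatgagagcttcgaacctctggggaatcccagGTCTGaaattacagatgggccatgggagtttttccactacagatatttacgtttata
HAND2-AS1: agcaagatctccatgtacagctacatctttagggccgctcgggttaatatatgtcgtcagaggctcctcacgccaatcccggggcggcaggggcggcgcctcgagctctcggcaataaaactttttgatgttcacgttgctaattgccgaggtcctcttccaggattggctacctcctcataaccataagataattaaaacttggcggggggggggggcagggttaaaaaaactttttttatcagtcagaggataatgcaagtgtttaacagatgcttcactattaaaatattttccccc
TPM1-AS: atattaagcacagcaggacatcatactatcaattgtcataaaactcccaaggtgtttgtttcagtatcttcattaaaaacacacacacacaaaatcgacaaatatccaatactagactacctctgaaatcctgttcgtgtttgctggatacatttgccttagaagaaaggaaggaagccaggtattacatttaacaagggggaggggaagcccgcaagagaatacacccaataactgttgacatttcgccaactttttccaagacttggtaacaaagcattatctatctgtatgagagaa

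The window of NKILA shares 267 bases with a RefSeq promoter window of PMEPA1, since those starts are 168 bp apart. It holds 2 matches, 180 and 174 bases before the start of NKILA, which are separated by 1 base. The window of TGFB2-AS1 holds 1 match, 97 bases before its start, and that of TBILA holds 1, 7 bases before its start. The window of HAND2-AS1 shares 272 bases with that of HAND2 and holds no match, and that of TPM1-AS holds none. For HAND2-AS1 the window shown was the RefSeq one starting closest to HAND2, so the choice itself favoured sharing. The other windows shown were those closest to the RNA's own start. The RefSeq start of HAND2-AS1 used for its window, at 173530458, differs from that of the count table, at 173527270. RefSeq windows were found for 96 of the 245 RNAs, 122 windows in all. CAGAC on either strand was in 45.1% of these, in 48.0% of the 25 windows of RNAs that rose, in 55.0% of the 20 of RNAs that fell, and in 45.3% of all 35116 windows. TGANTCA, the AP-1 site (N is any base, and it reads the same on both strands), was in 6.56% of the RNAs' windows and in 7.71% of all. The letters CA can belong to a match of both motifs. These matches describe letters and show no binding.

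TPM1-AS (ENSG00000259498, chr15:63046034-63049387, minus strand) lies inside TPM1, which encodes an actin-binding tropomyosin. It had 12.3, 8.55 and 9.69 CPM in TGF-β1 libraries, against 1.54, 1.87 and 1.14 CPM in untreated libraries, and the groups did not overlap. Its log2 fold change of 2.74 ± 0.19 (adjusted p = 6.45e-16) stood beside one of 2.25 ± 0.03 for TPM1, which averaged 1575 ± 23.5 CPM in TGF-β1 libraries and 331 ± 4.10 CPM in untreated libraries (SD, n = 3 each). TPM1 exons cover 61.7% of the TPM1-AS exons, the highest such share among the 245 RNAs. TPM1-AS counts may therefore hold TPM1 reads, and the ratio of the pair did not pass the test (log2 difference 0.50 ± 0.21, adjusted p = 0.290).

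AC103740.1 (ENSG00000259370, chr15:62827675-62884034, minus strand) showed the largest change of the 245. It had 93, 136 and 128 counts (3.76, 4.75 and 4.94 CPM) in TGF-β1 libraries, against 5, 5 and 6 counts (0.160, 0.164 and 0.214 CPM) in untreated libraries. The log2 fold change was 4.62 ± 0.33, or 24.6-fold (adjusted p = 1.84e-15). It was the single RNA with fewer than 10 counts per library on average in 1 group, and the TGF-β1 libraries gave nearly all of the counts that placed it among the 245. Its partner TLN2, a talin that ties integrins to actin, fell, with 64.8 ± 0.493 CPM in TGF-β1 libraries and 79.5 ± 3.58 CPM in untreated libraries (SD, n = 3 each; log2 fold change −0.30 ± 0.05, adjusted p = 3.40e-06). TLN2 exons cover 9.92% of its exons.

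AL139393.2 (ENSG00000272841, chr6:160990318-160992342, minus strand) starts head to head with MAP3K4, a kinase of the stress-activated MAP kinase pathways. It had 16.1, 18.7 and 15.99 CPM in TGF-β1 libraries, against 3.04, 2.63 and 3.0 CPM in untreated libraries. Its log2 fold change was 2.55 ± 0.14 (adjusted p = 7.88e-20), against 0.82 ± 0.06 for MAP3K4, and the ratio of the pair rose by 1.72 ± 0.15 (adjusted p = 5.15e-07). Here the antisense RNA rose more than its partner. Exons of MAP3K4 cover 17.6% of the AL139393.2 exons.

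WNT5A-AS1, GDNF-AS1 and STARD4-AS1 rose, and so did their partners, with ratios that did not pass the test. WNT5A-AS1 lies inside WNT5A, a ligand of non-canonical WNT signalling, and shares no exon with it. It had 13.5, 12.6 and 12.6 CPM in TGF-β1 libraries, against 4.09, 3.54 and 4.28 CPM in untreated libraries, with no overlap. The log2 fold change was 1.70 ± 0.14 for the RNA (adjusted p = 6.23e-14) and 1.99 ± 0.05 for WNT5A, and their ratio did not pass the test (log2 difference −0.29 ± 0.15, adjusted p = 0.409). GDNF-AS1 spans GDNF, a neurotrophic factor, and averaged 3.73 ± 0.185 CPM in TGF-β1 libraries and 1.37 ± 0.148 CPM in untreated libraries (SD, n = 3 each). Its log2 fold change was 1.44 ± 0.24 (adjusted p = 2.90e-06), and that of GDNF was 1.38 ± 0.13. GDNF exons cover 5.33% of the GDNF-AS1 exons. STARD4-AS1 overlaps NREP, a gene named for neuronal regeneration, and starts beside STARD4, a sterol carrier. It rose by 1.51 ± 0.14 on the log2 scale, NREP by 1.75 ± 0.06 and STARD4 by 1.00 ± 0.05. NREP exons cover 15.7% of the STARD4-AS1 exons.

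LINC01137 and AP000941.1 have no overlapping partner. LINC01137, which starts beside ZC3H12A, an RNase that degrades inflammatory mRNAs, had 6.31, 6.07 and 7.80 CPM in TGF-β1 libraries, against 1.73, 3.48 and 2.11 CPM in untreated libraries. Its log2 fold change was 1.46 ± 0.20 (adjusted p = 1.58e-07), and that of ZC3H12A was 0.44 ± 0.06. AP000941.1 rose by 1.39 ± 0.34 (adjusted p = 0.00136), but its untreated libraries were spread from 0.492 to 1.93 CPM, against 2.26 to 3.31 CPM in TGF-β1 libraries. Without untreated replicate 3, the highest of those, its log2 fold change was 2.09. HOXB-AS4, in the HOXB cluster, rose by 1.19 ± 0.21 (adjusted p = 6.84e-06), while its partner HOXB7, a homeobox factor, had a log2 fold change of −0.15 ± 0.07 that did not pass the test (adjusted p = 0.126).

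**Figure D2:**
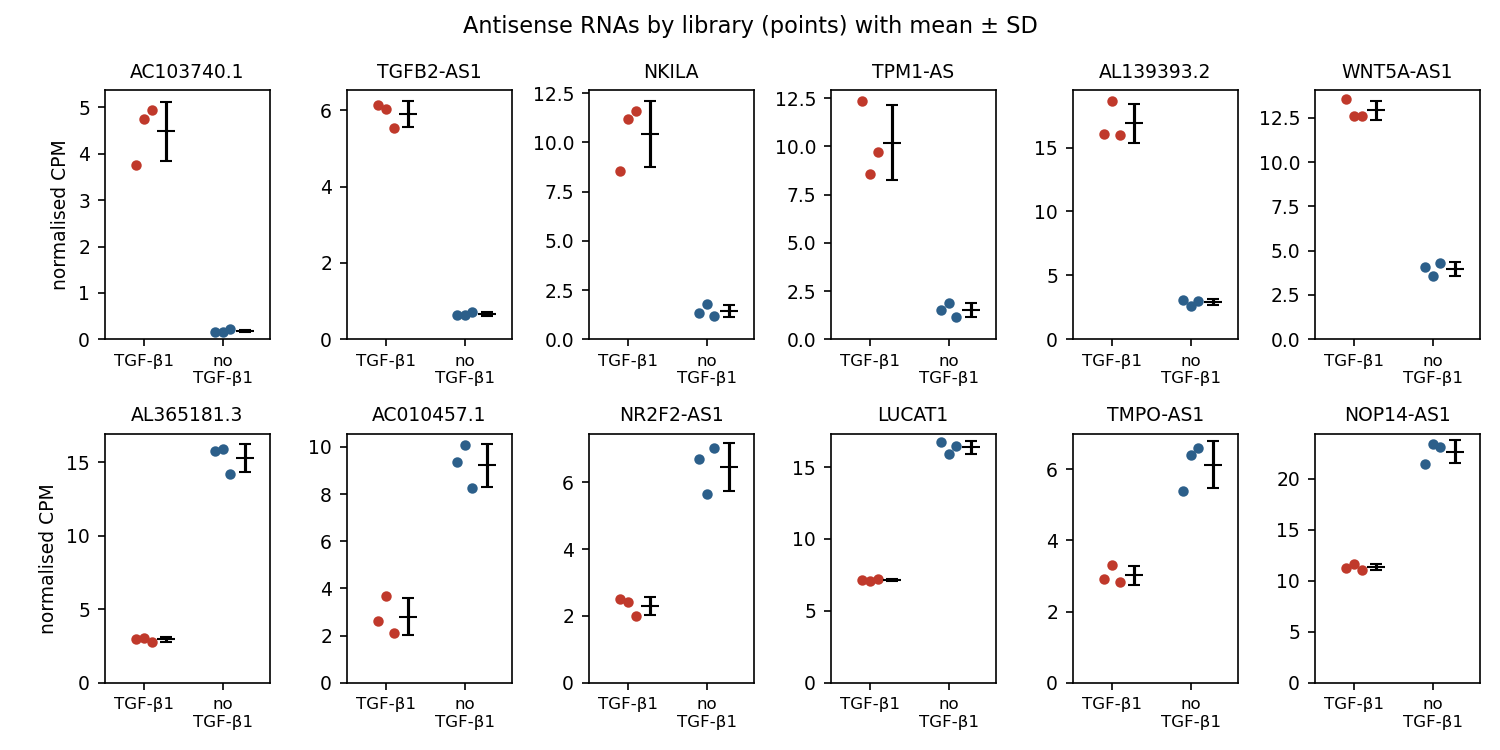
Normalised CPM (vertical axes, each from 0) of 12 antisense RNAs in each library, TGF-β1 on the left and no TGF-β1 on the right of each panel. Points are libraries, and the black bar is the mean ± SD of the 3. In each panel the groups do not overlap.

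Among the falls, AL365181.3, AC010457.1 and NR2F2-AS1 were the largest. AL365181.3 (ENSG00000272405, chr1:156641666-156644887, minus strand) lies inside BCAN, the proteoglycan brevican. It had 2.99, 3.07 and 2.78 CPM in TGF-β1 libraries, against 15.8, 15.9 and 14.2 CPM in untreated libraries, and fell by 2.37 ± 0.14 on the log2 scale (adjusted p = 1.17e-18). BCAN was itself scarce, at 1.14 ± 0.0580 CPM in TGF-β1 libraries and 2.46 ± 0.359 CPM in untreated libraries (SD, n = 3 each), and fell by 1.12 ± 0.28. The ratio of the pair fell by 1.27 ± 0.15 (adjusted p = 2.54e-05), so the antisense RNA fell more. Per gene length it was the more abundant, at 0.890 FPKM in TGF-β1 and 4.61 FPKM in untreated libraries, against 0.224 and 0.485 FPKM for BCAN.

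NR2F2-AS1 (ENSG00000247809, chr15:96110040-96327361, minus strand) starts head to head with NR2F2, the nuclear receptor COUP-TFII. It had 2.51, 2.41 and 2.01 CPM in TGF-β1 libraries, against 6.72, 5.64 and 7.03 CPM in untreated libraries, a log2 fold change of −1.48 ± 0.19 (adjusted p = 9.46e-09). NR2F2 averaged 109 ± 8.73 CPM in TGF-β1 libraries and 391 ± 19.2 CPM in untreated libraries (SD, n = 3 each) and fell by 1.85 ± 0.05 on the log2 scale. The pair shares no exon, and its ratio did not pass the test (log2 difference 0.37 ± 0.19, adjusted p = 0.404). The related pair moved the other way: NR2F1-AS1 rose by 0.80 ± 0.11 (adjusted p = 5.25e-08) and NR2F1, the receptor COUP-TFI, by 0.36 ± 0.08.

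HAND2-AS1, picked after its values were seen, starts head to head with HAND2, a transcription factor of the stellate lineage. It had 3.68, 4.15 and 3.94 CPM in TGF-β1 libraries, against 7.55, 6.14 and 6.42 CPM in untreated libraries, and every TGF-β1 library was lower. It fell by 0.77 ± 0.16 (adjusted p = 0.000152) and HAND2 by 0.74 ± 0.17 (adjusted p = 0.000348). TFAP2A-AS2, inside TFAP2A, a factor of neural crest and epithelial development, fell by 1.23 ± 0.30 (adjusted p = 0.000748), and TFAP2A by 0.75 ± 0.06. TFAP2A exons cover 27.5% of the exons of TFAP2A-AS2, which averaged 1.05 ± 0.312 CPM in TGF-β1 libraries and 2.46 ± 0.411 CPM in untreated libraries (SD, n = 3 each).

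NOP14-AS1 and TMPO-AS1 fell beside partners that did not pass the test. NOP14-AS1 overlaps NOP14, a factor of small ribosomal subunit assembly, and had 11.3, 11.6 and 11.05 CPM in TGF-β1 libraries, against 21.4, 23.4 and 23.1 CPM in untreated libraries. Its log2 fold change was −1.0 ± 0.09 (adjusted p = 6.09e-12), that of NOP14 was 0.01 ± 0.07 (adjusted p = 0.951), and the ratio fell by 1.0 ± 0.12 (adjusted p = 1.49e-05). TMPO-AS1 starts head to head with TMPO, a protein of the nuclear lamina, and had 2.91, 3.31 and 2.82 CPM in TGF-β1 libraries, against 5.37, 6.4 and 6.6 CPM in untreated libraries. It fell by 1.02 ± 0.18 (adjusted p = 7.60e-06), while TMPO had a log2 fold change of −0.04 ± 0.04 (adjusted p = 0.370). NOP14-AS1 also starts beside MFSD10, on the other strand, which fell by 0.32 ± 0.06 (adjusted p = 5.11e-05).

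AC010457.1, which overlaps EGFLAM, a matrix protein known from retinal synapses, fell by 1.71 ± 0.17 (adjusted p = 4.57e-11), and EGFLAM by 0.41 ± 0.09. LUCAT1, a stress-responsive long noncoding RNA, had 7.12, 7.05 and 7.18 CPM in TGF-β1 libraries, against 16.8, 15.9 and 16.5 CPM in untreated libraries. It fell by 1.20 ± 0.11 (adjusted p = 4.50e-12), and its partner ADGRV1, an adhesion receptor, was under 1 CPM in both groups. The other 3 of the 10 largest falls were AP001107.9, AC008105.3 and TM4SF19-AS1. AP001107.9 (−1.03 ± 0.28) overlaps the nucleoside transporter gene SLC29A2. AC008105.3 (−1.02 ± 0.15) overlaps the formin gene FMNL1 head to head, and FMNL1 exons cover 17.1% of its exons. FMNL1 had a log2 fold change of −0.49 ± 0.05 (adjusted p = 1.55e-11 by edgeR). TM4SF19-AS1 (−0.99 ± 0.28) is partnered with a read-through gene listed at 0 FPKM in both groups.

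The 6 most abundant antisense RNAs changed by at most 0.37 on the log2 scale. FGD5-AS1 averaged 354 ± 9.27 CPM in TGF-β1 libraries and 364 ± 7.51 CPM in untreated libraries (SD, n = 3 each), with overlapping groups and a log2 fold change of −0.04 ± 0.03 (adjusted p = 0.368). It passed the test under 2 other scalings, at −0.16 with library totals alone (adjusted p = 8.02e-05) and at −0.08 with upper-quartile factors (adjusted p = 0.0344). HCG18, of the HLA region, rose by 0.37 ± 0.05 (adjusted p = 1.30e-08) to 84.7 ± 1.44 CPM in TGF-β1 libraries, against 65.3 ± 1.6 CPM in untreated libraries. THAP9-AS1 rose by 0.26 ± 0.07, and PSMA3-AS1, NNT-AS1 and the imprinted RNA KCNQ1OT1 fell by 0.17 ± 0.06, 0.22 ± 0.07 and 0.29 ± 0.09. NNT, which encodes a mitochondrial transhydrogenase and starts 23 bp from NNT-AS1 at the closest transcript starts, fell by 0.32 ± 0.04. The call of PSMA3-AS1 was lost without untreated replicate 1 or 3 or TGF-β1 replicate 2 (adjusted p up to 0.139), that of NNT-AS1 without TGF-β1 replicate 2 (0.0686), and that of KCNQ1OT1 without untreated replicate 1 or TGF-β1 replicate 3 (up to 0.164). Scaling by library totals alone ended the call of THAP9-AS1 (adjusted p = 0.111).

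Of the well-known antisense RNAs named whatever their result, 6 were not called. HOTAIR had a log2 fold change of 0.16 ± 0.16 (adjusted p = 0.479), HAGLR of −0.05 ± 0.12 (adjusted p = 0.812) and HOXB-AS1 of 0.26 ± 0.25 (adjusted p = 0.451). LOXL1-AS1, which starts head to head with the collagen cross-linking enzyme gene LOXL1, had −0.11 ± 0.12 (adjusted p = 0.519), and LOXL1 had −0.07 ± 0.06 (adjusted p = 0.359). ZEB1-AS1 had −0.03 ± 0.23 (adjusted p = 0.944) beside a rise of 0.24 ± 0.06 in ZEB1, a transcription factor of epithelial-mesenchymal transition. DLEU2 had 0.23 ± 0.18 (adjusted p = 0.349). ZFAS1, a host of small nucleolar RNAs, passed narrowly at 0.26 ± 0.10 (adjusted p = 0.0456), and 20.9% of its exons overlap those of another gene on its own strand. Its adjusted p was 0.0598 with DESeq2's Wald test and 0.307 with library totals alone. Leaving out any 1 library except TGF-β1 replicate 1 also ended its call, with adjusted p up to 0.216. A p that missed the threshold does not show that these RNAs stayed the same, since their standard errors leave room for changes of that size.

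A larger share of partners than of antisense RNAs was called. Of the 218 partners, 200 passed the filter on low counts, and 56 rose and 45 fell, 50.5% against 38.9% of all genes tested. The RNA and its partner both rose in 13 pairs and both fell in 19, and they moved in opposite directions in 5. Exon overlap between RNA and partner was absent in 3 of the 13 and 8 of the 19. Among opposite pairs it was absent in 1 where the RNA rose and 1 where it fell. With 30.2% of the RNAs and 50.5% of tested partners called, some pairs would share a direction without any link, and how many was not worked out. In 11 pairs the RNA rose and in 11 it fell beside a tested partner that was not called. Where the RNA was not called, the partner rose in 41 pairs and fell in 24. The partners had the smaller standard errors, so these counts of calls do not compare the size of the changes.

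Across the 201 pairs with both genes tested, the log2 fold changes of RNA and partner had a Pearson correlation of 0.56 and a Spearman correlation of 0.49. Without NKILA and AC103740.1, the points farthest from the rest, Pearson's value was 0.61 over 199 pairs. This is a description across genes that share the same 6 libraries, and genes are not independent replicates. The 46 pairs without shared exon positions had a Spearman correlation of 0.54, and the 155 pairs with shared positions 0.46. Some of the 46 lie inside the partner, where reads of its unspliced RNA could be counted if strand was not used. Whether partner reads add to the correlation was not tested. The mature antisense RNA overlapped exons on the other strand in 184 of the 245, by a median of 7.57% of its exonic bases over all 245, and by 25% or more in 49. In addition, 33 of the 245 shared exon positions with a gene on their own strand. Of the 61 without exon overlap on the other strand, 12 rose and 11 fell (37.7%), and of the 184 with it 22 rose and 29 fell (27.7%), against 38.9% called among all genes.

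**Figure D3:**
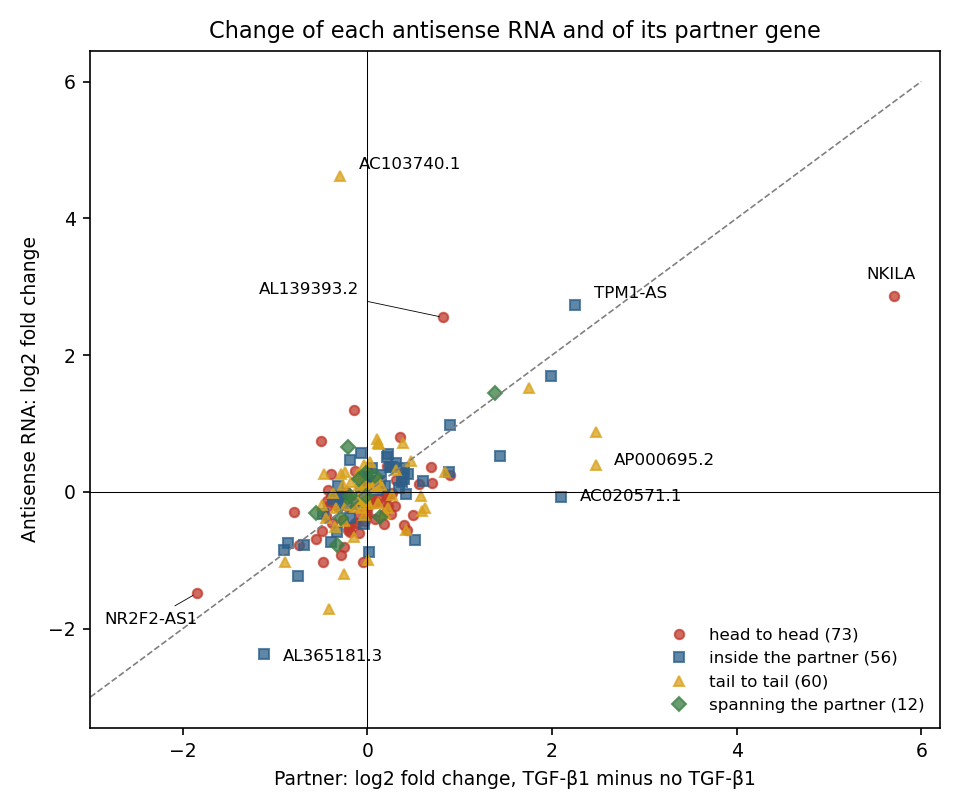
The log2 fold change of each antisense RNA (vertical axis) against that of its partner (horizontal axis) over 201 pairs, with marker shape and colour for how the pair lies. The dashed line marks equal change. NKILA lies far below it at the right, AC103740.1 far above it at the left, and TPM1-AS and NR2F2-AS1 near it.

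The arrangement of the pairs differed. In 75 the RNA and partner overlapped head to head, in 64 tail to tail, in 64 the RNA lay inside the partner and in 17 it spanned the partner. Of the head-to-head RNAs 9 rose and 14 fell, of those inside the partner 5 rose and 14 fell, of the tail-to-tail RNAs 10 rose and 8 fell, of the spanning ones 4 rose and 1 fell, and of the 25 without a partner 6 rose and 3 fell. The share called ran from 28.1% (tail to tail) to 36.0% (no partner), below the 38.9% of all genes in every arrangement. The Pearson correlation of the changes was 0.69 over 73 head-to-head pairs (Spearman 0.45), 0.26 over 60 tail-to-tail pairs (Spearman 0.34), 0.74 over 56 RNAs inside the partner (Spearman 0.67) and 0.79 over 12 spanning pairs (Spearman 0.52). Without NKILA, a head-to-head pair, and AC103740.1, a tail-to-tail pair, Pearson's value was 0.50 in each of those arrangements, so both values rested in part on 1 pair. Whether these differ from each other was not tested.

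The ratio of RNA to partner counts within each library was tested directly with limma over the 839 antisense-partner pairs of the table in which both genes passed the filter. Of the 201 pairs described here, the ratio rose in 5 and fell in 18 (11.4%), against 4.05% called among the 839, 1.07% higher and 2.98% lower. The 839 include these 201, and the antisense RNA in the rest had fewer than 300 counts. The 2 shares therefore do not compare pairs of like depth. Without the variance trend in limma, 2 were higher and 4 lower, namely AC103740.1, AL139393.2, NKILA, AC020571.1, AP000695.1 and AP000695.2. The ratio calls of the other RNAs named here were then lost at adjusted p of 0.0603 to 0.472. The 0.472 was for SNHG7, whose ratio to its partner FAM69B rose by 0.55 on the log2 scale. That call was also lost without untreated replicate 2 or 3 or TGF-β1 replicate 1 (adjusted p up to 0.238). Without untreated replicate 3, 10 were lower. Of the 23 pairs, 8 share no exon positions. The 5 pairs that moved in opposite directions were all among the 23. They had been picked by opposite calls in the same libraries, so their ratio calls add no separate evidence. NECTIN3-AS1 starts head to head with NECTIN3, a cell adhesion protein, and had 18.3, 19.7 and 19.7 CPM in TGF-β1 libraries, against 10.4, 12.7 and 11.4 CPM in untreated libraries. NECTIN3 had 15.9, 18.1 and 18.2 CPM in TGF-β1 libraries, against 25.6, 23.7 and 24.4 CPM in untreated libraries. Per gene length, the RNA was above the gene in both groups, with 11.2 FPKM for the RNA and 2.73 FPKM for the gene in TGF-β1 libraries, and 6.70 and 3.86 FPKM in untreated libraries. The RNA rose by 0.74 ± 0.10 and the gene fell by 0.50 ± 0.09, and the ratio rose by 1.24 ± 0.12 (adjusted p = 2.54e-06). Exons of the pair do not overlap.

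AC103740.1 and TLN2 had the largest rise in ratio, 4.82 ± 0.34 (adjusted p = 3.10e-08). In the other 3 opposite pairs the RNA fell and the partner rose. AC121761.1 fell by 0.70 ± 0.26 inside GLIPR1, a secreted-protein family gene that rose by 0.52 ± 0.04. AC004943.2 fell by 0.56 ± 0.11 and ZFHX3, a homeodomain transcription factor, rose by 0.42 ± 0.06. SREBF2-AS1 fell by 0.47 ± 0.18 and SREBF2, the master regulator of cholesterol synthesis genes, rose by 0.18 ± 0.03. The SREBF2 ratio was near the threshold (−0.67 ± 0.18, adjusted p = 0.0491), and it was lost without any 1 library except TGF-β1 replicate 1 (adjusted p up to 0.238) and with the replicate block (0.0502). The call of SREBF2-AS1 itself was lost without untreated replicate 2 or 3 or TGF-β1 replicate 3 (up to 0.175). That of AC121761.1 was lost without untreated replicate 1 or 3 or TGF-β1 replicate 2 or 3 (up to 0.168).

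In 6 pairs the ratio changed while the RNA itself was not called, each with a partner that rose and a ratio that fell. AC020571.1 lies inside HECW2, a ubiquitin ligase gene, without exon overlap, and had 7.88, 9.63 and 7.61 CPM in TGF-β1 libraries, against 8.54, 9.06 and 8.99 CPM in untreated libraries. Its groups overlapped, while HECW2 had 101, 103 and 100.03 CPM in TGF-β1 libraries, against 22.1, 27.1 and 21.5 CPM in untreated libraries. The ratio fell by 2.2 ± 0.15 (adjusted p = 2.97e-08). AP000695.2 and AP000695.1 both overlap CLDN14, a tight-junction claudin that averaged 8.87 ± 0.195 CPM in TGF-β1 libraries and 1.59 ± 0.0858 CPM in untreated libraries (SD, n = 3 each; log2 fold change 2.47 ± 0.18). AP000695.1 rose by 0.87 ± 0.16 (adjusted p = 2.20e-05), AP000695.2 had 0.40 ± 0.18 (adjusted p = 0.0780), and the ratios fell by 1.59 ± 0.16 and 2.07 ± 0.17. These 2 pairs share a partner and are not independent. FRMD6-AS1, inside FRMD6, a regulator of Hippo signalling, rose by 0.52 ± 0.20 (adjusted p = 0.0329), against 1.44 ± 0.03 for FRMD6, and the ratio fell by 0.93 ± 0.19 (adjusted p = 0.00770). The call of FRMD6-AS1 was lost without untreated replicate 1 or 2 or TGF-β1 replicate 2 (adjusted p up to 0.175) and with library totals alone (0.100), and its ratio call without untreated replicate 3 (0.0567).

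**Figure D4:**
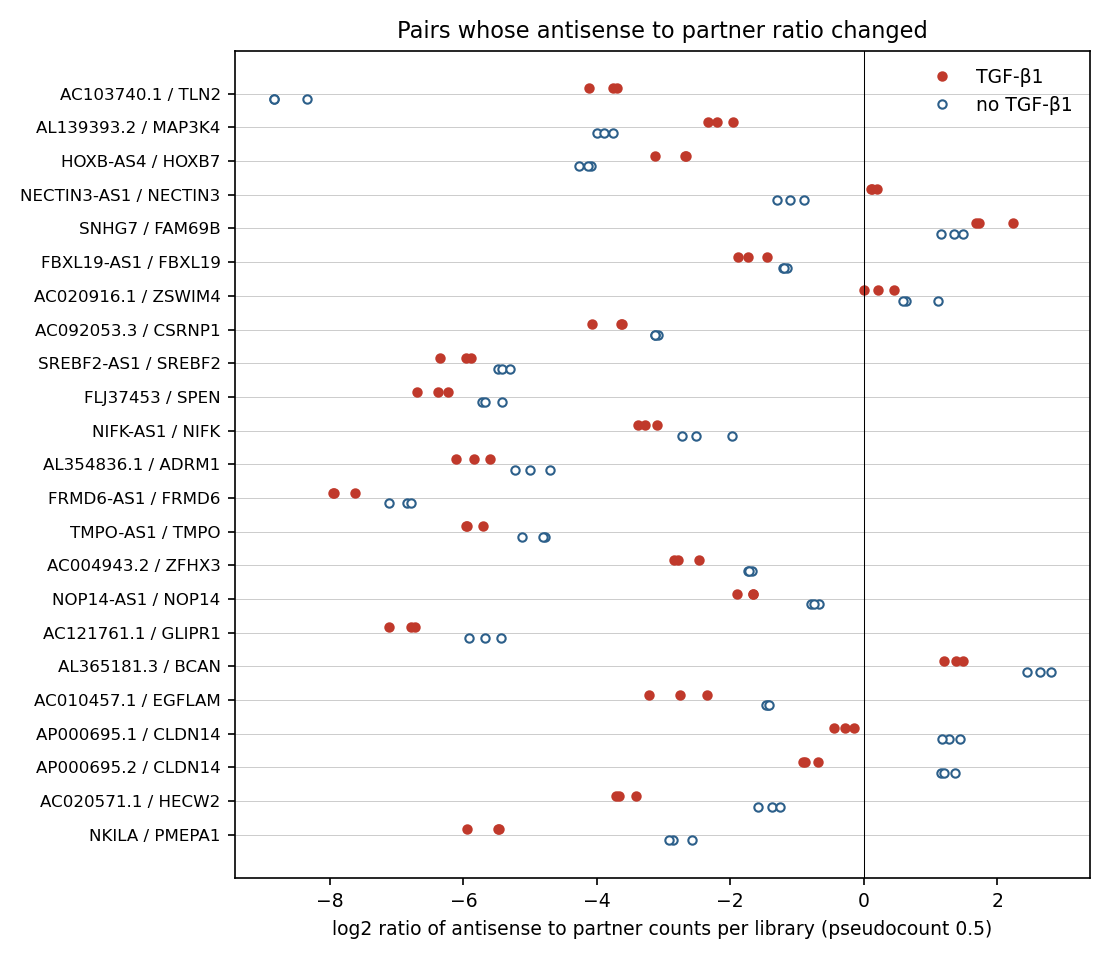
The log2 ratio of antisense to partner counts in each library (horizontal axis) for the 23 pairs whose ratio changed, with filled points for TGF-β1 and open points for no TGF-β1 libraries. The top 5 pairs have higher ratios with TGF-β1, and the 18 below have lower ones. The vertical line at 0 marks equal counts, which are not scaled to gene length.

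Per gene length, antisense RNAs were mostly below their partners. In mean deposited FPKM, 160 of 220 RNAs were lower than the partner and 60 were higher. The median level was 1.40 FPKM for the RNAs and 5.33 FPKM for the partners, and the median partner-to-RNA ratio was 3.67. FGD5-AS1 was far above its partner FGD5, a guanine nucleotide exchange factor gene, with 67.1 FPKM in TGF-β1 and 68.8 FPKM in untreated libraries, against 1.15 and 0.957 FPKM for FGD5. NR2F2-AS1 was far below NR2F2, with 0.370 FPKM in TGF-β1 and 1.03 FPKM in untreated libraries, against 16.4 and 58.8 FPKM.

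**Figure D5:**
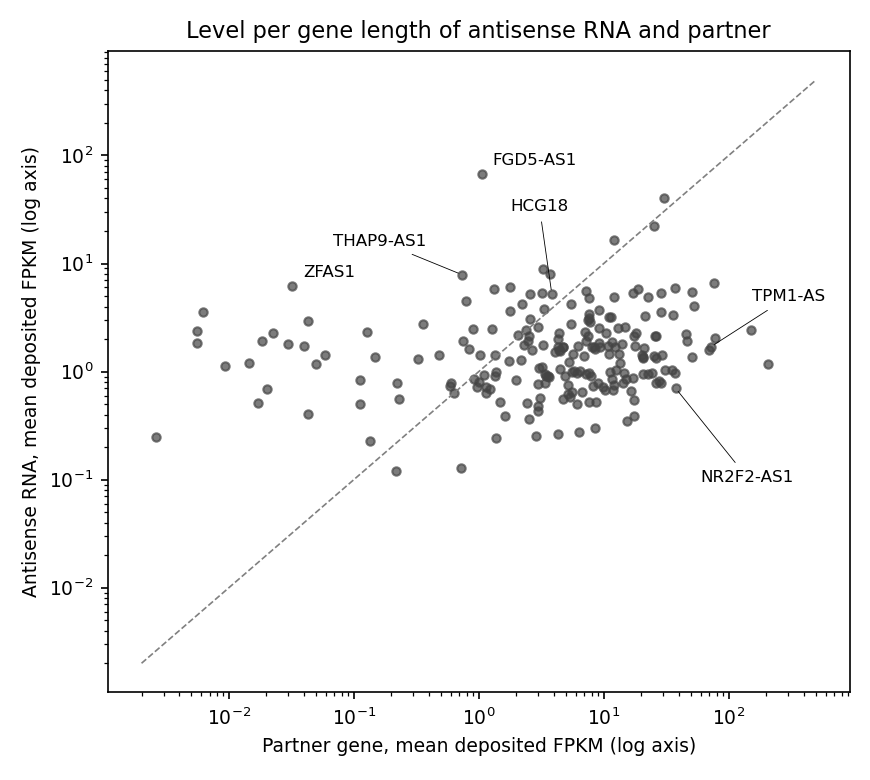
Mean deposited FPKM over the 6 libraries of each antisense RNA (vertical log axis) against its partner (horizontal log axis) for 214 pairs, leaving out 6 pairs whose partner was listed at 0. Each point is a pair, and the dashed line marks equal levels. More points lie below the line than above it.

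Genes for proteins that remove or read such transcripts were examined as 2 lists, beside a background of 20.2% of all tested genes called higher and 18.7% called lower. Of 27 genes for nuclear RNA surveillance (the exosome, its adaptors and termination factors), 6 rose and 0 fell by edgeR, with a median log2 fold change of 0.06 against −0.01 over all tested genes. EXOSC10, an exonuclease of the nuclear exosome, rose by 0.19 ± 0.04, and MTREX, a helicase of the nuclear exosome, by 0.18 ± 0.04. NCBP1 and ZC3H18 rose by 0.14 each, WDR82 by 0.14 and SRRT by 0.10. Of 27 genes whose proteins bind, edit, cut or sense double-stranded RNA, 7 rose and 5 fell, with a median of 0.04 over members that went both ways. The largest of these changes were a fall of 0.37 ± 0.05 in the editing enzyme gene ADARB1 (adjusted p = 1.28e-08), rises of 0.32 ± 0.04 in AGO2 and 0.26 ± 0.06 in AGO3, which carry small guide RNAs, and a fall of 0.25 ± 0.05 in the sensor gene OAS3. Whether these changes bear on the antisense RNAs was not tested.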

How the data were processed

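RNA was sequenced from 6 LX-2 libraries, 3 with TGF-β1 and 3 without, all with NSUN2 siRNA. Counts are the authors' deposited whole-number reads per gene, and the deposited FPKM values are the authors' own. Reads had been through fastp and HISAT2 2.2.1 on hg38, per the submitters' processing notes. How reads were counted, and with which strand setting, is not given in the sources here. Left out were 6 columns in each of the 2 tables that match no sample here.

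Counts were tested with edgeR 4.0.16 (TMM, filterByExpr minimum count 10 and total 15, robust quasi-likelihood, two-sided, Benjamini-Hochberg over 17215 genes, adjusted p under 0.05, residual degrees of freedom 4). An SE is the log2 fold change's size over the square root of F. Ratios were tested with limma 3.58.1 on log2 count ratios (pseudocount 0.5, trend on the RNA's mean level) over 839 pairs. Exons came from GENCODE 29, in which all 58735 gene identifiers had the same start, end and strand. CPM uses TMM-scaled library sizes.

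Members, lists and tests were chosen with earlier results of these data known. Named were the 10 largest rises and falls, the 6 most abundant RNAs, all 5 ratio rises and the 6 largest ratio falls. Opposite pairs, well-known antisense RNAs and at most 4 genes of the 2 RNA lists by size were also named. TBILA, HAND2-AS1, FRMD6-AS1 and the surveillance genes that rose were picked after their values were seen.

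On simulated counts over 17215 genes (10 draws), the gene test recovered 54.3%, 80.6% and 96.2% of genes changed 1.5-, 2- and 4-fold, and 6.83% of its calls were false. The ratio test was run over 839 pairs. It recovered 30.6%, 83.6% and 98.5% of changed pairs whose RNA was among the 245. Of its calls over all pairs, 5.34% were false. Each draw changed far fewer genes than were called in the data, so the rates of both tests may not hold there. Alternatives were DESeq2 1.42.0, other scalings, filters and pseudocounts, a replicate block and each library left out.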

Additional observations from a re-analysis of the deposited data

How the results depend on the processing

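Of the 74 antisense RNAs called, 0 changed direction under any alternative, and 53 to 74 kept their call. Scaling by library totals alone moved the median of all genes by −0.12 (log2) and gave 20 RNAs higher and 61 lower, and 37 partners higher and 79 lower. With 1 library left out at a time, 26 to 32 RNAs were higher and 29 to 35 lower, 51 to 56 partners higher and 39 to 44 lower, the ratio was higher in 5 to 6 pairs and lower in 10 to 18, and the lists gave 4 to 9 surveillance and 10 double-stranded RNA genes. The 10 pairs with a lower ratio came without untreated replicate 3. The ratio counts depended on the variance model: limma without the trend gave 2 higher and 4 lower, against 5 and 18. A filter of at least 1 CPM in 3 libraries gave 8 pairs with a higher ratio. Replicate numbers did not pair the samples (correlations of same-numbered deviations −0.005, 0.011 and −0.009), and the replicate block gave 8 pairs with a higher ratio. Choosing RNAs at 100 summed counts gave 56 higher and 66 lower, and at 1000 counts 15 and 16. The RNAs without exon overlap on the other strand gave 12 and 11, and 2 and 6 for the ratio. No filter on low counts ended the calls of AC121761.1, FRMD6-AS1, SREBF2-AS1 and ZFAS1 (adjusted p 0.0504 to 0.0814). HAGLR and ZEB1-AS1, neither called, ran from −0.14 to 0.079 and from −0.14 to 0.058 on the log2 scale with 1 library left out, so their sign is not fixed. Except where the construction sets the number of genes or libraries, the cause was not tested. Low counts limit the precision for RNAs near the threshold.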
